A study of Mus musculus with 24 samples.

Results

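The clustered protocadherin genes are 3 neighbouring families, alpha, beta and gamma, on mouse chromosome 18. Of 145143 accessible intervals in the deposited ATAC-seq table, 79 lay on that chromosome, carried a gene name starting with Pcdha, Pcdhb or Pcdhg and had their nearest transcription start site (TSS) within 10000 bp. The alpha cluster held 13 of them, the beta cluster 35 and the gamma cluster 31, and together they spanned 886 kb. Just inside the distance limit lay an interval 7676 bp upstream of Pcdhgc3. Just outside it lay intervals 16422 and 19297 bp downstream of Pcdhga12, 19950 bp upstream of Pcdhgc3 and 25472 bp downstream of Pcdhb22.

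Clustered protocadherins are cadherin-family adhesion proteins that recognise like proteins on neighbouring cells. In the alpha and gamma clusters each variable exon has its own promoter and is spliced to constant exons shared by the cluster, whereas each beta gene codes for its protein in 1 exon. Neurons use a few of these promoters per cell, and the choice depends on binding of the insulator protein CTCF and of cohesin to conserved sites in the promoters and, in the alpha cluster, also within the exons. The last genes of the alpha and gamma clusters, the C types (Pcdhac1, Pcdhac2, Pcdhgc3, Pcdhgc4 and Pcdhgc5), are used more uniformly, and the conserved CTCF element is not found in the promoters of Pcdhac2, Pcdhb1, Pcdhgc4 and Pcdhgc5.

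ATAC-seq, which counts insertions of a transposase into open DNA, was done on mouse embryonic stem cells of 4 lines. KO_Firre cells lacked the long noncoding RNA Firre and carried a Firre transgene that doxycycline induces, and KO_control cells lacked Firre, with no transgene named in their labels. WT_Firre cells carried the inducible transgene in a wild type background, and WT_control cells were wild type. All were kept in medium with LIF and inhibitors of MEK and GSK3. All libraries, those of the control lines and of 0 min included, are labelled with doxycycline treatment (1 ng per µL), and each came from 25000 cells. Each line had 1 library at each of 0, 30, 60, 90, 120 and 150 min, except that the WT_Firre library of 60 min was not analysed here, which left 23 libraries. The times of a line therefore served as its replicates, no label describes separate cultures or clones, and a difference between lines cannot be told apart from a difference between clones.

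The 23 libraries held between 5725518 and 14977148 counts (median 7664147), and the median protocadherin interval had 43 counts in a library. Libraries of the same line differed by more than sampling noise (lowest chi-square per degree of freedom 1.109), so none was counted as a repeat. Accessibility is given in CPM, counts scaled to the size of each library. Over the 20 intervals assigned to Firre, which checks the labels, it was 23.3 ± 4.06 CPM (SD, n = 6) in KO_Firre, 10.3 ± 2.89 CPM (n = 6) in KO_control, 129 ± 9.75 CPM (n = 5) in WT_Firre and 92.7 ± 7.16 CPM (n = 6) in WT_control. Promoter intervals were found for 9 of 9 embryonic stem cell markers (median 16.1 CPM per kb), among them Pou5f1 and Nanog. They were found for 3 of 10 fibroblast markers (median 5.85 CPM per kb) and 6 of 10 neural markers (9.30 CPM per kb). Levels of single markers overlapped between lists, with 16.5 CPM per kb at the neural marker Tubb3 and 12.35 at Nanog. Promoter intervals held 35.7 ± 0.456% of counts in KO_Firre, 36.0 ± 0.844% in KO_control, 34.8 ± 1.98% in WT_Firre and 33.0 ± 0.546% in WT_control (SD over libraries). This share was higher in every library of both KO lines (35.05% to 37.0%) than in any WT_control library (32.1% to 33.7%). In WT_Firre it was 38.1% at 150 min, the highest of all libraries, and 33.2% to 35.03% at the other times.

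Of the 58 RefSeq genes of the clusters, 51 had an interval of their name. The alpha cluster had intervals named for 9 of 14 genes, the beta cluster for 22 of 22 and the gamma cluster for 20 of 22. For 5 of the 7 others (Pcdha4, Pcdha6, Pcdha7, Pcdha12 and Pcdhga8) the RefSeq gene start lay in an interval that the deposited annotation assigned to an antisense or other overlapping transcript, and for Pcdha10 it lay in an interval named for Pcdha11. Pcdhgc5 started in no interval. Over the same stretch, 21 intervals in all were assigned to other transcripts, these 5 included. Among them was also the interval over the start of Pcdhgc3 (10.4 CPM per kb, named for the antisense gene BC037039). These genes have near-identical copies, and how reads that match several copies were counted is not given in the sources used here, so levels of single genes are uncertain to that extent.

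The intervals fell into distinct positions along the genes. By the distance of the interval to the TSS, 37 were proximal (within 1000 bp), 39 were further downstream and 3 further upstream. The deposited annotation placed 58 in exons, 13 in promoters, 5 at transcription end sites and 3 in introns. In the beta cluster 18 of 20 downstream intervals lay 1700 to 2400 bp past the TSS, towards the end of the exon, and in the gamma cluster 8 of 11 did. In the alpha cluster 3 of 8 did, and 6 of its 13 intervals were 2000 bp wide or more, such as those of Pcdha1 (chr18:36930034-36932562 in mm10, exon 1 of 4) and Pcdha3 (chr18:36945987-36948469, exon 1 of 4). For Pcdhb5, Pcdhb7, Pcdhb9, Pcdhb10, Pcdhb14, Pcdhb16 and Pcdhb18 the RefSeq gene start lay in no interval. Of these genes Pcdhb16 had a proximal interval, and the other 6 had a downstream interval alone.

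Levels were compared as CPM per kb of interval, averaged over the 23 libraries. The gamma cluster had the highest median, 7.60 CPM per kb, against 4.49 in the beta cluster and 4.17 in the alpha cluster. All 145143 intervals had a median of 4.68 CPM per kb, and the 17725 intervals annotated as promoters a median of 9.26. In the gamma cluster 29 of 31 intervals were above the median of all intervals, as were 16 of 35 in the beta cluster and 2 of 13 in the alpha cluster. The median of promoter intervals was exceeded by 7 gamma intervals, by 1 alpha interval, that of Pcdhac2, and by 0 beta intervals.

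**Figure D1:**
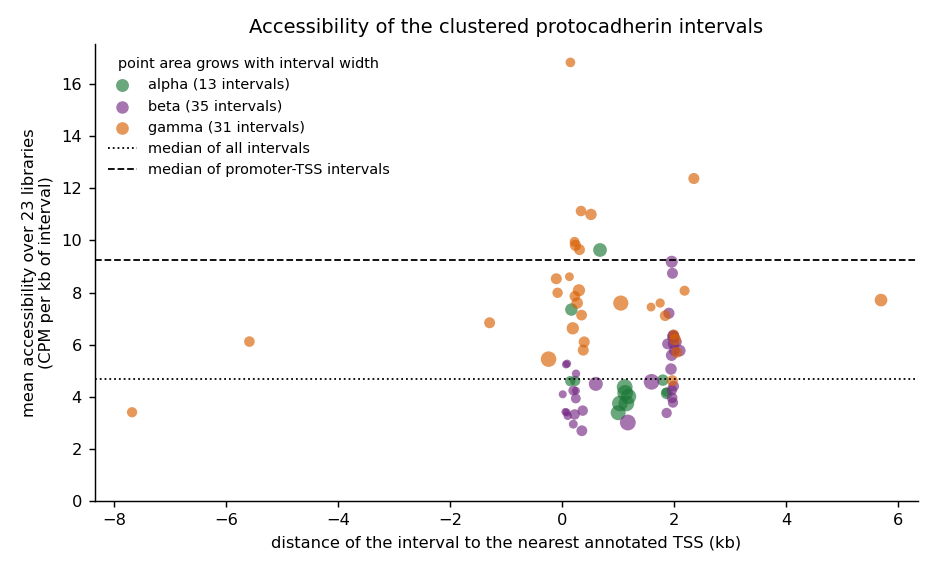
Mean accessibility over 23 libraries (CPM per kb of interval, y axis) of the 79 clustered protocadherin intervals against the distance to the nearest annotated TSS (kb, x axis). Colours mark the clusters, point area grows with interval width, and lines mark the medians of all intervals (4.68) and of promoter intervals (9.26); most gamma points lie above the lower line, and the beta points form a low group near the TSS and a higher one about 2 kb downstream.

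Proximal and downstream intervals were compared separately. The 17 gamma proximal intervals had a median of 8.09 CPM per kb (range 5.44 to 16.8), the 5 alpha ones 4.60 (3.38 to 9.63) and the 15 beta ones 3.93 (2.69 to 5.27), so the gamma and beta proximal intervals did not overlap. Downstream intervals had medians of 7.44 in the gamma cluster (range 4.61 to 12.4), 4.14 in the alpha cluster (3.74 to 4.64) and 5.77 in the beta cluster (3.01 to 9.18). There the gamma and alpha ranges barely met, and both overlapped that of the beta cluster. Within the gamma cluster, proximal intervals of the A and B subfamilies had similar medians, 8.31 CPM per kb over 10 Pcdhga intervals and 8.30 over 6 Pcdhgb intervals. Widths differed as well, with medians of 929 bp for gamma, 1346 bp for alpha and 307 bp for beta proximal intervals, and their part in these levels was not tested.

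The highest level in the locus among these intervals was at the start of Pcdhgb6 (chr18:37741947-37742533, exon 1 of 4, 146 bp past the TSS), a B-subfamily gamma gene, at 16.8 CPM per kb, above 95.2% of all intervals. Per library this interval had 8.60, 9.19 and 10.5 CPM (lowest, median and highest) in KO_Firre, 8.48, 10.6 and 14.6 CPM in KO_control, and 8.31, 9.77 and 11.3 CPM in WT_control. In WT_Firre its 5 libraries had 9.16, 8.75, 10.5, 11.2 and 7.62 CPM at 0, 30, 90, 120 and 150 min. The lines overlapped, and the KO_control library of 90 min was the highest. In the alpha cluster the highest level was at Pcdhac2 (chr18:37143296-37145058, exon 1 of 4), a C type without the conserved CTCF element, at 9.63 CPM per kb. It had 18.03 ± 1.51 CPM in KO_Firre, 17.7 ± 2.09 CPM in KO_control, 15.6 ± 1.42 CPM in WT_Firre and 16.4 ± 2.38 CPM in WT_control (SD over libraries), and the lines overlapped.

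Among the intervals named for C types, those of the other genes had lower levels than that of Pcdhac2. The proximal interval of Pcdhac1 had 7.35 CPM per kb and that of Pcdhgc4 5.44 CPM per kb. For Pcdhgc3 the nearest interval of its name lay 5582 bp upstream, at 6.12 CPM per kb. The interval over the start of Pcdhgc3, named for BC037039, had 10.4 CPM per kb, above that of Pcdhac2. Per library, Pcdhac1 had 7.05 to 11.9 CPM in KO_Firre, 9.28 to 11.1 CPM in KO_control, 7.58 to 9.95 CPM in WT_Firre and 8.39 to 10.6 CPM in WT_control. Pcdhgc4 had 12.6 to 15.1 CPM in KO_Firre, 12.2 to 17.0 CPM in KO_control, 11.2 to 13.96 CPM in WT_Firre and 10.2 to 14.5 CPM in WT_control, so for both genes all 4 lines overlapped.

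Both a proximal interval and one further along the gene were found for 24 genes, and the order of the levels differed between clusters. In the beta cluster the downstream interval was higher in 11 of 12 genes, with a median ratio of 1.503 (range 0.812 to 1.963), and Pcdhb16 was the exception. In the gamma cluster the proximal interval was higher in 7 of 9 genes, with a median downstream to proximal ratio of 0.788 (range 0.422 to 1.13). The exceptions were Pcdhgb1 and Pcdhga12. The alpha cluster had 3 such genes, with ratios of 1.01 for Pcdha5, 0.897 for Pcdha9 and 0.568 for Pcdhac1.

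Examples show how stable the order was over libraries. Pcdhb8 had 7.204 ± 1.13 CPM per kb downstream and 4.24 ± 0.976 proximal (SD, n = 23 libraries), and the downstream interval was higher in 22 of 23 libraries. For Pcdhb19 the values were 6.30 ± 1.03 and 3.26 ± 1.34, again with the downstream interval higher in 22 of 23. Pcdhgb6 had the opposite order, 7.11 ± 1.12 downstream and 16.8 ± 2.47 proximal, and Pcdhgb4 likewise, 4.61 ± 1.04 and 9.95 ± 1.46, each in 23 of 23 libraries. For Pcdhb6, with 3.37 ± 0.794 downstream and 3.32 ± 0.738 proximal, and Pcdha5, with 4.64 ± 0.649 and 4.60 ± 0.819, the levels did not differ beyond the spread between libraries. An order held in at least 20 of 23 libraries for 7 of 12 beta, 5 of 9 gamma and 1 of 3 alpha genes. Those beta genes include Pcdhb13 and Pcdhb15. Their proximal intervals, 186 and 239 bp wide, had counts too low for the tests between lines below. Median widths of the paired intervals were 879 bp downstream and 358 bp proximal in the beta cluster, and 868 and 811 bp in the gamma cluster, and the part of width in the beta order was not tested.

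**Figure D2:**
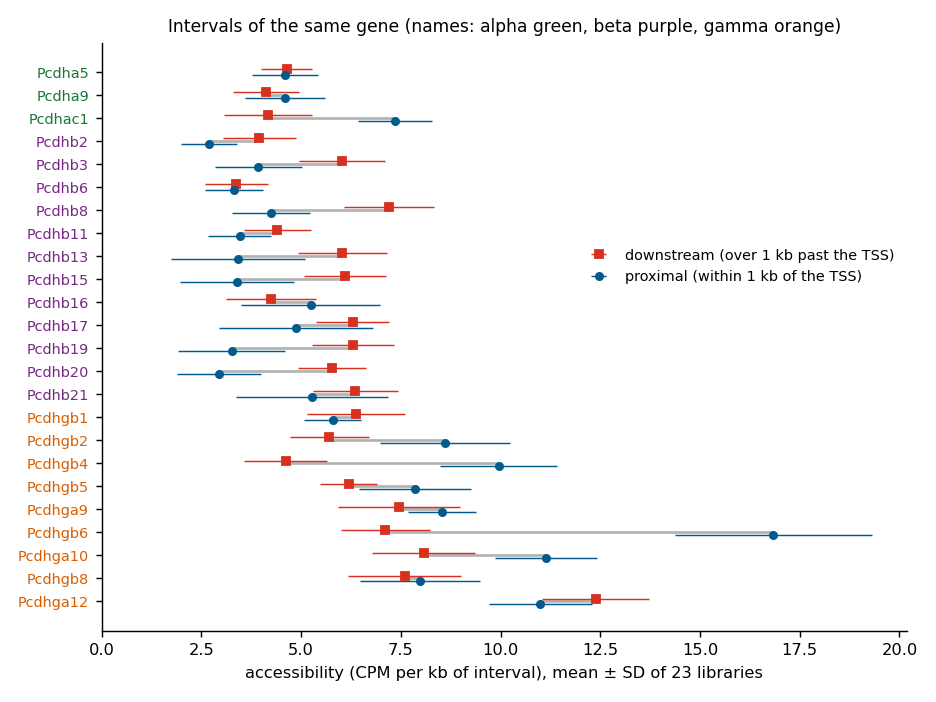
Accessibility (CPM per kb of interval, x axis) of the downstream (squares) and proximal (circles) interval of each gene that had both, mean ± SD over 23 libraries, with 3 alpha, 12 beta and 9 gamma genes down the y axis. Squares lie to the right in 11 of 12 beta genes and circles to the right in 7 of 9 gamma genes.

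The clusters were then compared between lines, to ask whether loss or re-expression of Firre went with a different accessibility. Each of the 129515 intervals that passed a filter on low counts was fitted in edgeR (quasi-likelihood F test), with terms for line and time, and an interval was called at an adjusted p of at most 0.05. The filter kept 76 of the 79 protocadherin intervals, and left out narrow proximal intervals of Pcdhb12, Pcdhb13 and Pcdhb15 with 117 to 158 counts in all libraries together. Another Pcdhb12 interval, 9 bp past the TSS, was kept.

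KO_control and WT_control differed at 1 protocadherin interval of 76, at Pcdhb14, where 7.97% of all tested intervals were called (10319 of 129515) and 5.5% were called higher in KO_control. The other 75 intervals were not called, in either direction. At an unadjusted p under 0.05 there were 14 of 76 protocadherin intervals (4 alpha, 7 beta and 3 gamma), or 18.4%, against 22.2% of all intervals. The median log2 difference was -0.10 in the alpha, -0.06 in the beta and -0.02 in the gamma cluster, against -0.02 over all intervals. The median 95% interval of a member reached 0.26 to either side on the log2 scale. Without TMM, on total counts, the median of all intervals was -0.12 and the cluster medians were -0.20, -0.15 and -0.11.

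The called interval lies in the single exon of Pcdhb14 (chr18:37448995-37450224, 1953 bp past the TSS) and was also the highest of the beta cluster, at 9.18 CPM per kb. It had 10.95, 12.2 and 16.5 CPM (lowest, median and highest of 6 libraries) in KO_control and 8.62, 9.75 and 11.3 CPM in WT_control. The highest library of KO_control was that of 90 min, and the 2 lines overlapped. The log2 difference was 0.36 ± 0.10 (SE; edgeR adjusted p = 0.0165). KO_Firre had 10.7, 12.7 and 14.2 CPM, close to KO_control, and the 5 WT_Firre libraries had 10.6, 8.23, 9.73, 10.5 and 9.05 CPM at 0, 30, 90, 120 and 150 min, close to WT_control. For KO_Firre against KO_control the log2 difference of this interval was -0.02 and for WT_Firre against WT_control -0.06.

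That call depended on the processing. It was made with limma-voom (log2 0.36, adjusted p = 0.0194) and missed with DESeq2 (log2 0.36, adjusted p = 0.0553). Counts scaled to totals without TMM gave 0.27 (edgeR adjusted p = 0.0799) and called 6 other protocadherin intervals, all lower in KO_control. It was also lost with the promoter share of each library as a covariate (log2 0.31, edgeR adjusted p = 0.651), a fit that called 46 intervals in the whole table. Without the KO_control library of 90 min the difference was 0.27 (edgeR adjusted p = 0.145), without the WT_control library of 90 min 0.28 (edgeR adjusted p = 0.129), and without that of 120 min 0.33 (edgeR adjusted p = 0.0564). Without both KO_control libraries of 30 and 90 min it was 0.27 (edgeR adjusted p = 0.245), and in that fit 0 protocadherin intervals were called.

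**Figure D3:**
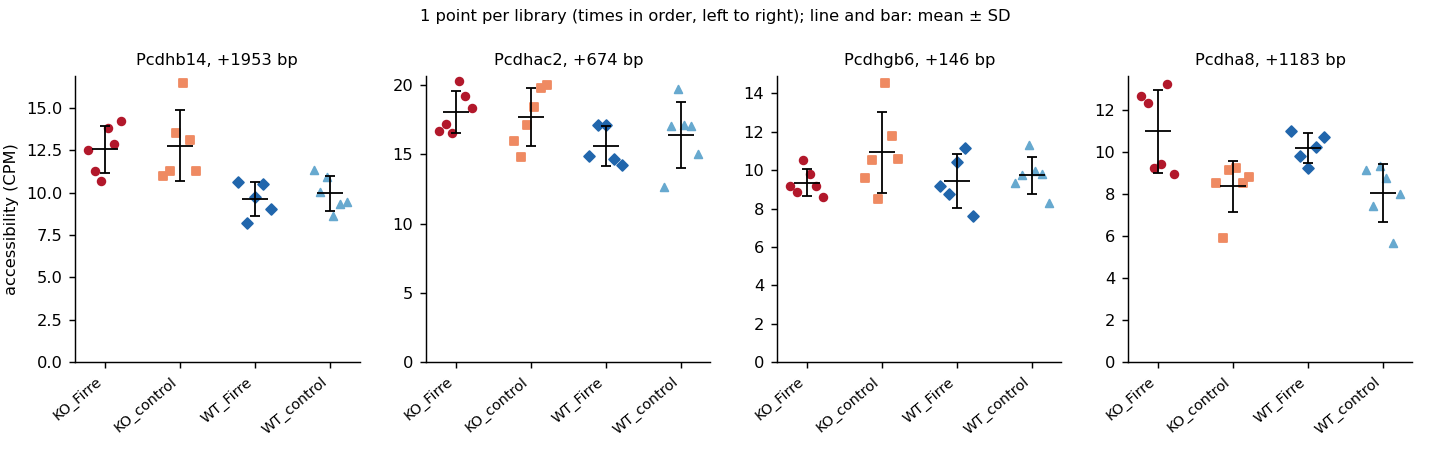
Accessibility (CPM, y axis) of 4 intervals in each library, by line (x axis), with points in the order of the times and the mean ± SD per line. The Pcdhb14 interval, called for KO_control against WT_control, lies between 10.95 and 16.5 CPM in KO_control and between 8.62 and 11.3 CPM in WT_control; the lines overlap at Pcdhac2, Pcdhgb6 and Pcdha8.

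Among the intervals not called, the smallest p of the alpha cluster was at Pcdha11 (chr18:37005102-37007301, exon 1 of 4), with 5.55, 6.28 and 7.69 CPM in KO_control and 7.45, 7.99 and 8.93 CPM in WT_control. KO_control was lower there apart from its library of 60 min (log2 -0.31 ± 0.12, edgeR adjusted p = 0.0877). The smallest p of the gamma cluster was at the interval 5582 bp upstream of Pcdhgc3, in intron 1 of 3, with 3.51, 4.35 and 6.11 CPM in KO_control and 4.99, 5.63 and 6.31 CPM in WT_control (log2 -0.37 ± 0.15, edgeR adjusted p = 0.102). At both intervals the lines overlapped, and over all 79 intervals 0 had KO_control and WT_control apart in every library, against 2.82% of all intervals.

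Within the beta cluster the proximal and downstream intervals gave different medians, -0.26 over 12 tested proximal and 0.06 over 20 downstream intervals. The log2 difference was negative in 9 of the 12 and positive in 11 of the 20. Summed over the 15 proximal intervals, KO_control had 25.7, 29.4 and 31.2 CPM (lowest, median and highest) and WT_control 31.2, 34.3 and 35.6 CPM, which did not overlap (31.15 CPM at most in KO_control and 31.24 CPM at least in WT_control). That gap between the nearest libraries is smaller than the counting error of a library, a coefficient of variation of 6.64% in KO_control and 6.36% in WT_control. The means of the sums were 28.7 ± 1.96 CPM in KO_control and 33.7 ± 1.74 CPM in WT_control (SD over libraries). KO_Firre had 28.3 to 34.4 CPM and WT_Firre 28.3 to 32.1 CPM, and both overlapped WT_control. In KO_Firre the overlap came from the library of 0 min, since the other 5 had 28.3 to 30.3 CPM and lay below every WT_control library. In WT_Firre the libraries of 0, 90 and 150 min, at 28.3, 28.7 and 28.4 CPM, also lay below every WT_control library. Those of 30 and 120 min, at 32.1 and 31.5 CPM, did not. Summed over the 20 downstream intervals, KO_control had 115 to 131 CPM and WT_control 113 to 120 CPM. The per-library ratio of downstream to proximal level over the 12 paired beta genes was 1.65 ± 0.103 in KO_Firre, 1.79 ± 0.190 in KO_control, 1.46 ± 0.0938 in WT_Firre and 1.34 ± 0.137 in WT_control (SD over libraries). In the gamma cluster the same ratio was 0.792 ± 0.0864 in KO_Firre, 0.733 ± 0.0677 in KO_control, 0.784 ± 0.0628 in WT_Firre and 0.742 ± 0.0728 in WT_control. This split was singled out after its values were seen and has no test. The promoter share of counts, 36.0% in KO_control and 33.0% in WT_control, differed between these control lines too, and its part in the beta values was not tested.

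KO_Firre and KO_control differed at 0 of 76 protocadherin intervals by edgeR, where 0.913% of all intervals were called, and DESeq2 and limma-voom called 0 as well. At an unadjusted p under 0.05 there were 6 of 76, or 7.89%, against 12.3% of all intervals. Cluster medians were 0.05 in the alpha, 0.03 in the beta and 0.06 in the gamma cluster, and 0.00 over all intervals. The smallest p was at Pcdha8 (chr18:36992386-36994723, exon 1 of 4), with 8.97, 10.9 and 13.3 CPM in KO_Firre and 5.93, 8.68 and 9.25 CPM in KO_control (log2 0.37 ± 0.11, edgeR adjusted p = 0.0838). All KO_Firre libraries but that of 150 min lay above the highest KO_control library. In the beta cluster the smallest p was at Pcdhb9, with 1.55, 2.08 and 3.30 CPM in KO_Firre and 2.41, 3.19 and 4.22 CPM in KO_control (log2 -0.56, edgeR adjusted p = 0.153). In the gamma cluster it was at the start of Pcdhga1, with 10.4, 11.1 and 13.5 CPM in KO_Firre and 7.42, 9.70 and 12.8 CPM in KO_control (log2 0.27, edgeR adjusted p = 0.232), and without the KO_Firre library of 150 min the difference was 0.17.

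WT_Firre and WT_control also differed at 0 of 76 intervals by edgeR, where 0.0818% of all intervals were called, with 0 by DESeq2 and by limma-voom. At an unadjusted p under 0.05 there were 7 of 76, or 9.21%, against 7.55% of all intervals. Medians were -0.05 in the alpha, -0.03 in the beta and 0.01 in the gamma cluster. Pcdha8 again had the smallest p of the alpha cluster. Its 5 WT_Firre libraries had 11.02, 9.79, 9.26, 10.2 and 10.7 CPM at 0, 30, 90, 120 and 150 min, and the WT_control libraries had 5.67, 8.39 and 9.32 CPM (lowest, median and highest), so all but the WT_Firre library of 90 min lay above WT_control (log2 0.33 ± 0.12, edgeR adjusted p = 0.465). The smallest p of the beta cluster was at the start of Pcdhb6, with 2.09 to 2.79 CPM in WT_Firre and 2.44 to 3.44 CPM in WT_control (log2 -0.42, edgeR adjusted p = 0.632). In the gamma cluster it was at an intronic interval 5688 bp past the TSS of Pcdhga12, with 10.9 to 14.3 CPM in WT_Firre and 9.58 to 12.5 CPM in WT_control (log2 0.24, edgeR adjusted p = 0.581). The difference between both transgene contrasts called 0 of 76 by edgeR, against 0.266% of all intervals, with 4 of 76 at an unadjusted p under 0.05 (10.6% of all intervals) and 0 by DESeq2 and limma-voom.

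**Figure D4:**
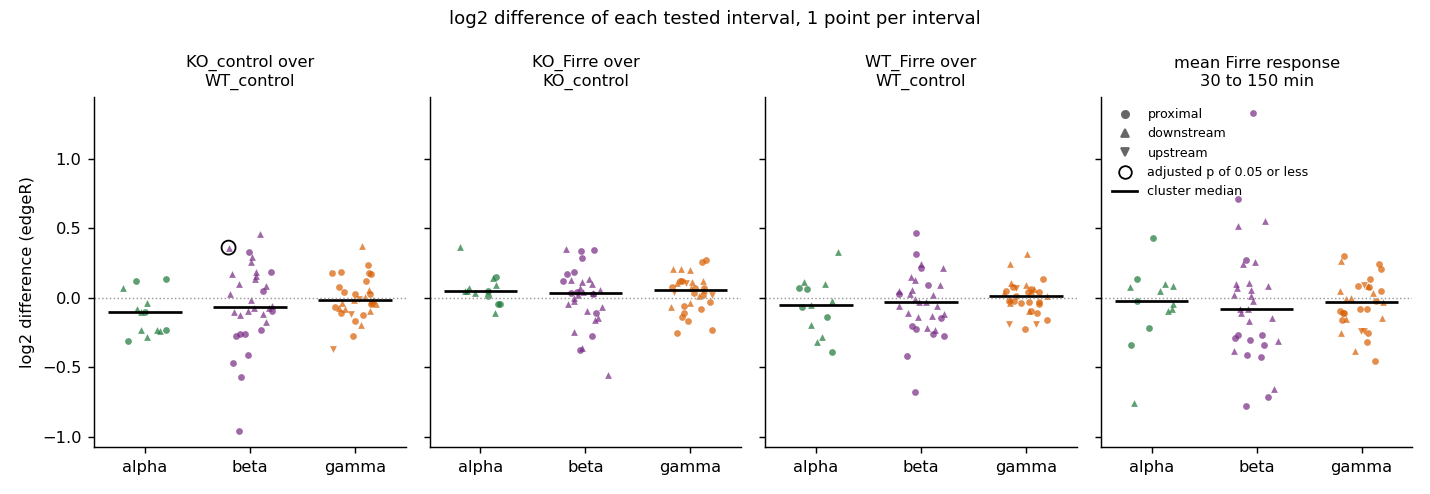
log2 difference (y axis) of each of the 76 tested intervals by cluster (x axis) for 4 comparisons, with 1 point per interval, marker shapes for the position and bars for the cluster median. The 1 ringed point, Pcdhb14 in KO_control over WT_control, is the only one with an adjusted p of 0.05 or less; cluster medians lie between -0.10 and 0.06.

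The time courses asked whether accessibility changed in the 150 min after doxycycline in lines with the transgene, over and above the control lines. The mean Firre response, the change of the Firre lines from 0 min to the mean of 30 to 150 min less that of the control lines, called 0 of 76 intervals by edgeR, where 0.0% of all intervals were called, with 5 of 76 at an unadjusted p under 0.05 (3.77% of all intervals) and 0 by DESeq2 and limma-voom. The time course as a whole called 0 of 76, where 0.000772% of all intervals (1 of 129515) were called, with 2 of 76 at an unadjusted p under 0.05 (4.42% of all intervals). The mean doxycycline response of the control lines, tested the same way, called 0 of 76, where 0.0% of all intervals were called, with 5 of 76 at an unadjusted p under 0.05 (5.27% of all intervals). Slopes per hour called 0 of 76 in either background, where 0.0% of all intervals were called. At an unadjusted p under 0.05 there were 0 of 76 for KO_Firre less KO_control (5.99% of all intervals) and 2 of 76 for WT_Firre less WT_control (4.01% of all intervals). DESeq2 and limma-voom called 0 in each of these tests as well.

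Median Firre responses were -0.03 in the alpha, -0.08 in the beta and -0.03 in the gamma cluster, against 0.00 over all intervals. Precision was lower than for the line contrasts, since the median 95% interval of a member reached 0.52 to either side on the log2 scale. The smallest p-values of the clusters were at Pcdhac1 (log2 0.43), Pcdhb10 (log2 -0.66) and Pcdhga11 (log2 -0.45). Without the KO_Firre library of 0 min the response was 0.19 at Pcdhac1 and -0.27 at Pcdhga11, and without the WT_Firre library of 0 min it was 0.67 at Pcdhac1. The proximal Pcdhac1 interval had 7.05 CPM at 0 min and 10.1 to 11.9 CPM later in KO_Firre, against 11.1 CPM at 0 min and 9.28 to 11.1 CPM later in KO_control. It had 8.23 CPM at 0 min and 7.58 to 9.95 CPM later in WT_Firre, against 9.74 CPM at 0 min and 8.39 to 10.6 CPM later in WT_control, so the low value at 0 min was that of KO_Firre. The downstream Pcdhb10 interval had 6.62 CPM at 0 min and 5.46 to 6.71 CPM later in KO_Firre, against 4.87 CPM at 0 min and 5.05 to 7.22 CPM later in KO_control. It had 7.97 CPM at 0 min and 6.40 to 7.08 CPM later in WT_Firre, against 4.87 CPM at 0 min and 5.91 to 9.07 CPM later in WT_control. Each 0 min value is a single library, and both control lines were low in theirs. The Pcdhga11 interval, at the start of the gene, had 10.6 CPM at 0 min and 6.85 to 9.47 CPM later in KO_Firre, against 7.30 CPM at 0 min and 6.50 to 9.31 CPM later in KO_control. In WT_Firre it had 8.63 CPM at 0 min and 6.65 to 9.95 CPM later, against 7.02 CPM at 0 min and 6.60 to 10.2 CPM later in WT_control.

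Summed over each cluster, libraries stayed within a narrow band at all times. The alpha sum was 103 ± 4.62 CPM in KO_Firre, 97.6 ± 4.28 CPM in KO_control, 102 ± 6.26 CPM in WT_Firre and 104 ± 4.86 CPM in WT_control (SD over times). The beta sum was 153 ± 4.85 CPM in KO_Firre, 151 ± 6.27 CPM in KO_control, 147 ± 3.46 CPM in WT_Firre and 150.3 ± 2.97 CPM in WT_control. The gamma sum was 233 ± 6.76 CPM in KO_Firre, 229 ± 15.2 CPM in KO_control, 230.1 ± 10.6 CPM in WT_Firre and 228 ± 2.14 CPM in WT_control. These sums interleave within each cluster, at similar levels in all 4 lines. At 0 min the gamma sum was 225 CPM in KO_Firre, 227 CPM in KO_control, 242 CPM in WT_Firre and 225 CPM in WT_control. Later it lay between 227 and 241 CPM in KO_Firre, 210.0 and 244 CPM in KO_control, 215 and 235 CPM in WT_Firre, and 226 and 230.2 CPM in WT_control. The gamma sum varied most in KO_control, where the libraries of 60 and 150 min had 211 and 210.0 CPM and the others 227 to 244 CPM. Its coefficient of variation there was 6.64%, against 2.36% from counting alone, whereas in WT_control it was 0.938% against 2.45%. The promoter share of counts was 35.2% and 35.6% in the KO_control libraries of 60 and 150 min and 35.05% to 37.0% in the other 4.

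**Figure D5:**
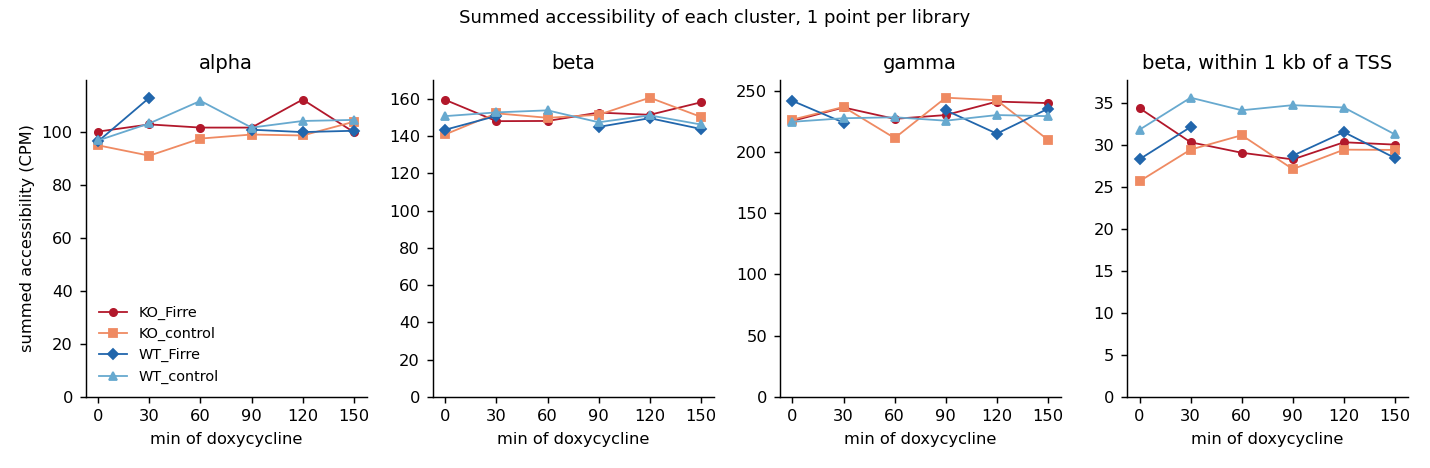
Summed accessibility (CPM, y axis) of the alpha, beta and gamma clusters and of the 15 beta intervals within 1 kb of a TSS, by min of doxycycline (x axis), with 1 point per library and 1 colour per line. The cluster sums of the 4 lines interleave, and in the right panel all WT_control points (31.24 to 35.62 CPM) lie above all KO_control points (25.67 to 31.15 CPM). The gap between the nearest points of both lines is smaller than the counting error of a library (6.64% in KO_control and 6.36% in WT_control). The means were 28.7 ± 1.96 CPM in KO_control and 33.7 ± 1.74 CPM in WT_control (SD over libraries).

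Genes with a role at these clusters were read at their own promoters. Of 19 regulators of the clusters, 13 had a tested promoter interval. In KO_control against WT_control 5 of the 13 were called, all higher in KO_control: those of Pds5b, a cohesin-associated factor (log2 0.31), of Zfp143, a zinc finger protein found with CTCF (0.46), of the maintenance methyltransferase Dnmt1 (0.31) and of the cohesin subunits Stag2 (0.28) and Smc1a (0.31). Mean accessibility in KO_control, WT_Firre and WT_control was 45.3, 42.4 and 32.8 CPM at Zfp143 and 51.0, 49.5 and 41.0 CPM at Dnmt1. It was 22.8, 22.1 and 18.3 CPM at Smc1a, 40.6, 37.1 and 32.5 CPM at Pds5b, and 24.2, 20.3 and 19.9 CPM at Stag2. The mean of WT_Firre lay between those of the 2 control lines at each, and nearer KO_control at all but Stag2. Its SD over libraries was 9.789 CPM at Zfp143, 6.09 at Dnmt1, 2.755 at Smc1a, 6.216 at Pds5b and 2.866 at Stag2. The SDs of WT_control lay between 0.6114 and 2.7 CPM. KO_Firre had means of 42.54, 47.56, 22.84, 37.47 and 21.94 CPM in the same order. The WT_Firre library of 150 min had a promoter share of 38.12%, and its part in these means was not tested. The median of the 13 was 0.23, against 0.10 over all promoter intervals, of which 19.7% were called, and between 0.00 and 0.24 under the other scalings. With the promoter share as a covariate this contrast called 46 intervals in the whole table. The interval at Ctcf was too low to test, and Smchd1, which represses these clusters, had none. For KO_Firre against KO_control, WT_Firre against WT_control and the mean Firre response, 0 of the 13 regulators were called by edgeR.

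The next lists are to be read against the same 19.7% of promoter intervals called. Of 12 non-clustered protocadherins, 5 had a tested promoter interval, and Pcdh9 was higher in KO_control than in WT_control (log2 0.45, edgeR adjusted p = 0.000709), while the other 4 were not called. Of 21 genes flanking the locus, 11 had a tested promoter interval, and 2 of them, Rnf14 (log2 0.27) and Gnpda1 (0.29), were higher in KO_control. Their list median of 0.17 fell to -0.10 under 1 of the other scalings, so the direction of the flanking list depends on it. The median of the non-clustered protocadherins likewise fell from 0.22 to -0.04 at its lowest. In KO_Firre against KO_control, WT_Firre against WT_control and the mean Firre response, 0 genes of either list were called. The 25 further intervals inside the locus, assigned to other transcripts or beyond the distance limit, gave 0 calls in the 3 line contrasts and the mean Firre response. Marker lists gave 2 calls of 9 for embryonic stem cell genes (Esrrb and Zfp42, both higher in KO_control) and 0 for the 3 fibroblast and 6 neural promoters tested. For KO_control against WT_control, the median of the stem cell list, 0.17, fell as low as -0.02 over the scalings. That of the fibroblast list, 0.04, fell to -0.08, and that of the neural list, 0.09, to -0.05. The summed neural promoters had 97.2 to 114 CPM in KO_Firre, 113 to 125 CPM in KO_control, 97.2 to 126 CPM in WT_Firre and 101 to 109 CPM in WT_control, and their part in the protocadherin values was not tested.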

How the data were processed

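The authors deposited unnormalized read counts of each accessible interval in each library, and the deposited annotation gives each interval's position, width, gene name and distance to the nearest TSS. MACS2 2.2.7.1, featureCounts and the mm10 build are named, per the submitters' processing notes. Steps not given in the sources used here include the alignment, the shift of reads for the transposase, the handling of duplicates and of reads with several matches, and any blacklist. Coordinates are as the deposited annotation gives them. Names and starts of cluster genes came from RefSeq (GRCm38, the same build).

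Counts of 23 libraries were fitted with edgeR 4.0.16 in R 4.3.3 (TMM, filterByExpr with a minimum of 10 counts, robust quasi-likelihood fit) over all 129515 intervals kept, with Benjamini-Hochberg adjustment over the same intervals. The line fit held line and time, the time fit added transgene by time, and the slope fit had a slope per hour within each line. With 1 library per line and time, p-values measure the spread between these libraries, which may be technical. SEs were derived from the F statistics. CPM used TMM library sizes, and CPM per kb divided it by interval width. In the library of median size a count of 0 allows a level of up to 0.394 CPM, from 3 counts, for counting error only; 1 of the 79 intervals had a count of 0 in a library.

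The members and gene lists were chosen with earlier results of these data known. Values were given by name for the highest interval of each cluster, the called intervals, the smallest p per cluster in the line contrasts and the mean Firre response, and the interval nearest each C type. Alternatives covered scaling, DESeq2 1.42.0, limma-voom (limma 3.58.1), filters, the distance limit, the promoter share as a covariate, time, and each library left out.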

Additional observations from a re-analysis of the deposited data

Results flagged for a closer look

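Of 96 groups of library values checked for 1 library far from the others of its line, 6 stood out, where about 1 in 20 does by chance, or 4.8 here. The alpha sum was 112 CPM in the KO_Firre library of 120 min, against 100.0 to 103 CPM in the other 5. It was 113 CPM in the WT_Firre library of 30 min, against 96.6 to 101 CPM in the other 4. The sum of the beta proximal intervals was 34.4 CPM in the KO_Firre library of 0 min, against 28.3 to 30.3 CPM in the other 5. Pcdha8 had 5.93 CPM in the KO_control library of 30 min, against 8.51 to 9.25 CPM in the other 5. The proximal Pcdhac1 interval had 9.28 CPM in the KO_control library of 60 min, against 10.8 to 11.1 CPM in the other 5. The intronic interval of Pcdhga12 had 13.4 CPM in the KO_Firre library of 30 min, against 9.92 to 11.04 CPM in the other 5.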

How the results depend on the processing

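The count of 0 called protocadherin intervals held under every alternative run for KO_Firre against KO_control, WT_Firre against WT_control, the difference of both, the mean Firre response, the Firre time course, the doxycycline response of the control lines and both slopes. For KO_control against WT_control the count of 1 moved. It was 6 with total counts, all lower in KO_control against 1 higher in the reported fit, 3 with a minimum count of 30, and 0 with DESeq2, with promoter share as a covariate, without the KO_control libraries of 30 and 90 min, and over proximal intervals alone. Over all intervals that contrast called 7127 higher and 3192 lower, and with total counts 3853 and 7220. It called 10319 intervals in all, 6034 with DESeq2, 6248 with loess offsets, 46 with promoter share as a covariate and 2134 without the KO_control libraries of 30 and 90 min; the cause was not tested. Leaving out 1 library each gave counts from 0 to 6 protocadherin intervals: 0 without the KO_control or the WT_control library of 90 min, 2 without KO_control at 60 min or WT_control at 0 or 60 min, and 6 without KO_control at 150 min. Pcdhb14 stayed higher in KO_control throughout, with log2 differences from 0.27 to 0.42 and adjusted p from 0.00367 to 0.651. Pcdha11 (from -0.40 to -0.25) and the interval upstream of Pcdhgc3 (from -0.61 to -0.28) kept their sign and passed the threshold under 4 and 2 alternatives. The 3 cluster medians of that contrast ran from -0.22 to 0.03, so their signs are not settled. Low counts limit the narrow beta proximal intervals most, where the median 95% interval reached 0.48 to either side on the log2 scale.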

Other observations

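From the start of Pcdhgc3 to the 3′ end of the gamma cluster, the most accessible intervals were assigned to other transcripts by the deposited annotation. The highest lay past Pcdhgc4 (chr18:37822086-37822992, annotated to an exon, with Gm38182 as the nearest TSS) at 20.2 CPM per kb, above the 16.8 CPM per kb of the Pcdhgb6 start. A neighbouring interval (chr18:37824508-37826886) had 11.04 CPM per kb, and 2 further on, nearest to Gm29994, had 12.1 (chr18:37835339-37837023) and 11.7 CPM per kb (chr18:37840389-37842991). The interval over the start of Pcdhgc3 (chr18:37805972-37808332) had 10.4 CPM per kb. Of these intervals, all except the highest were below the Pcdhga12 interval 2349 bp past its TSS (12.4 CPM per kb). All 5 were above the median of promoter intervals, 9.26 CPM per kb. For KO_control against WT_control their log2 differences lay between 0.05 and 0.17, with edgeR adjusted p from 0.201 to 0.779, and none was called.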
